A study of Mus musculus with 6 samples.

Results

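Adipoq, Lep, Retn, Cfd, Fabp4, Lpl, Cd36 and Pparg, a set of adipose hormone and lipid uptake genes, were followed in RNA-seq of whole mouse ovaries. The 8 genes were taken from a list of symbols with no threshold on their values, though earlier results of these data were known, and all 8 were found among the 44788 genes of the count table. They were compared between 3 Bnc1+/+ ovaries, replicates 1, 4 and 7, and 3 Bnc1tr/tr ovaries, replicates 1, 2 and 3, from C57BL/6 J mice that were all 8 weeks old. The Bnc1tr allele carries a small frameshift deletion in the gene of the transcription factor basonuclin 1 that leads to a premature stop codon, and it is present in every cell of the homozygous mice, so that a difference in the ovary need not begin in the ovary. The study bred it as a model of premature ovarian insufficiency and compared littermates, but the labels do not say which ovaries came from the same litter. The comparison asks how far the mutation, and how far the individual ovary, set the level of these genes.

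Adipocytes store triglyceride and secrete hormones. Adiponectin (Adipoq) raises insulin sensitivity, leptin (Lep) reports the size of the fat stores to the brain, resistin (Retn) is secreted by mouse adipocytes, and adipsin (Cfd) is the serine protease that starts the alternative complement pathway. Lipoprotein lipase (Lpl) frees fatty acids from circulating triglyceride, CD36 (Cd36) takes them into the cell, FABP4 (Fabp4) carries them inside it, and PPARG (Pparg) is the nuclear receptor that drives adipocyte differentiation. The mouse ovary lies in a fat pad and a bursa, and several of these genes are not limited to fat. Lpl, Cd36 and Fabp4 are also made by endothelial cells or macrophages, and Pparg is known from granulosa cells.

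The sequences before the start sites of the hormone genes are shown because these 4 genes varied together between ovaries. They are the 250 bases upstream of the start in RefSeq on GRCm38.p6, written 5′ to 3′. Capitals mark the CCAAT box (CCAAT) and the C/EBP palindrome (TTGCGCAA), both searched on both strands.
Adipoq, chr16:23146286-23146535, plus strand: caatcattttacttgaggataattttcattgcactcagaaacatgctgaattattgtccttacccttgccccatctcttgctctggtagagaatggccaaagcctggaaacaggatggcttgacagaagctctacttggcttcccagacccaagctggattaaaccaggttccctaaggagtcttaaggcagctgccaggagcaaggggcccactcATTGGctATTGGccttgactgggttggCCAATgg
Lep, chr6:29059971-29060220, plus strand: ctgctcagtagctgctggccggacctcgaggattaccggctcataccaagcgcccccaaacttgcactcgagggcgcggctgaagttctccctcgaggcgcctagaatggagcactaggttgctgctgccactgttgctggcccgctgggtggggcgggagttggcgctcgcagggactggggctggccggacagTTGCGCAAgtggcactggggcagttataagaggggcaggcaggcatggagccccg
Retn, chr8:3655520-3655769, plus strand: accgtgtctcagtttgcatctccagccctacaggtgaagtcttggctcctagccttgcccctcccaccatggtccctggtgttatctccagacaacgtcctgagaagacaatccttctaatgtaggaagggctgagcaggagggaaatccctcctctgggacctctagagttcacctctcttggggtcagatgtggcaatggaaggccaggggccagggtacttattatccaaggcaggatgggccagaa
Cfd, chr10:79890603-79890852, plus strand: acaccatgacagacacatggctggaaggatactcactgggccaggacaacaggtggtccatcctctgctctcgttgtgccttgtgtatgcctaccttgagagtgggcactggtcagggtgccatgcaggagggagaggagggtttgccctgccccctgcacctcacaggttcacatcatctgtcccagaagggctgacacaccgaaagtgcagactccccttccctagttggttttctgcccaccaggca

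The Adipoq window held 3 CCAAT boxes, 34, 27 and 7 bases before the start, where the Lep window held the palindrome 55 bases before it. Among all 32851 RefSeq windows of this length, 33.8% held a CCAAT box and 0.164% the palindrome. Neither motif, nor a TATA box (TATAAA), was found in the Retn and Cfd windows, which says only that these letters are not in these bases. The direct repeat bound by PPARG with its partner RXR, which is the half-site AGGTCA repeated in the same direction after a single base, was in 0.0335% of all windows and in 0 of the 8 windows found for 6 of the genes. The half-site alone, which also lies within the repeat, was in 14.0% of all windows and in 3 of these 8, those of Cd36 and Pparg. The table held no window for Fabp4 and Lpl.

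Depth ranged from 25247770 to 34406296 counts per ovary, and levels are given as CPM, the counts of a gene scaled to the same total in every ovary, after TMM normalization. Bnc1 itself had 13.9, 13.4 and 13.1 CPM in Bnc1+/+ and 18.7, 13.7 and 11.5 CPM in Bnc1tr/tr replicates 1, 2 and 3, and counts per gene cannot show the small deletion, so they did not check the genotype labels. Markers of the oviduct, the duct next to the ovary, set Bnc1tr/tr replicate 3 and Bnc1+/+ replicate 1 apart. The 7 oviduct markers, all detected, summed to 522 and 144 CPM in these ovaries and to between 14.2 and 31.0 CPM in the other 4. Summed markers of the corpus luteum, the progesterone-producing body left by an ovulated follicle, were 22620.5 to 26418.5 CPM in Bnc1+/+ and 6953 to 12454 CPM in Bnc1tr/tr ovaries. All 8 genes passed the filter on low counts. Lep, the lowest, reached 10 counts in 3 ovaries, which came from both genotypes.

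No member was called different between the genotypes, whereas the 4 hormones differed between single ovaries by 44.5-fold to 151-fold. The 151-fold range was that of Lep and rested on 1 count in its lowest ovary. Fabp4 ranged over 27.1-fold. In the quasi-likelihood test of edgeR, with p-values adjusted over 19423 genes by Benjamini and Hochberg's method and a threshold of 0.05, 0 of 8 members passed, beside 7.06% of all genes tested. At an unadjusted p under 0.05, 3 of 8 members passed (Retn, Lpl and Fabp4), beside 24.2% of all genes. The genotypes overlapped in all 8 members, and they did not overlap in 30.8% of all genes. DESeq2, limma-voom and edgeR with robust dispersion also called 0 of 8, with 4, 0 and 0 members at an unadjusted p under 0.05. The median log2 fold change was 2.07 over the members and 0.02 over all genes tested, with 7 members above and 1 below 0. Because these were whole ovaries, more cells of a type could not be told apart from more RNA per cell.

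**Figure D1:**
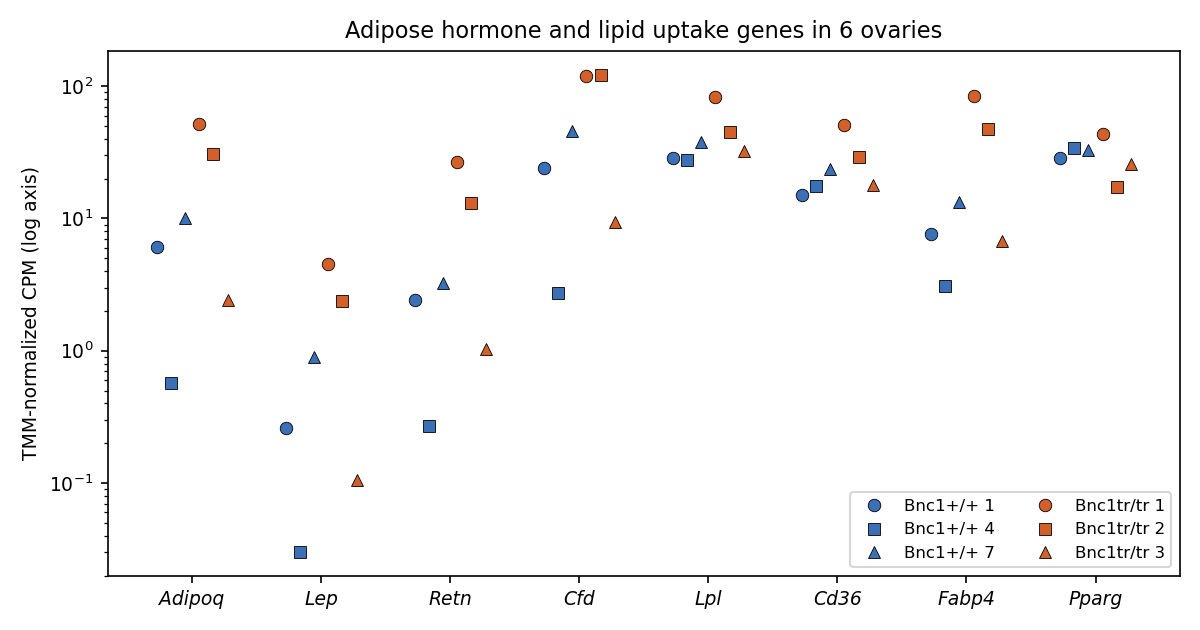
Levels of the 8 genes in each of the 6 ovaries as TMM-normalized CPM on a log axis, with a point for each ovary coloured by genotype. Bnc1tr/tr replicates 1 and 2 lie highest and Bnc1+/+ replicate 4 and Bnc1tr/tr replicate 3 lowest for the hormone genes, where Adipoq runs from 0.574 to 51.4 CPM, while Pparg stays between 17.2 and 43.3 CPM.

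Among the hormones, Adipoq (GRCm38, chr16:23146536-23158028, plus strand) had 6.13, 0.574 and 10.1 CPM in Bnc1+/+ replicates 1, 4 and 7. It had 51.4, 30.8 and 2.43 CPM in Bnc1tr/tr replicates 1, 2 and 3. Bnc1tr/tr replicates 1 and 2 were the highest of the 6 ovaries, but Bnc1tr/tr replicate 3 lay below Bnc1+/+ replicates 1 and 7. The means were 5.62 ± 4.80 CPM in Bnc1+/+ and 28.2 ± 24.6 CPM in Bnc1tr/tr ovaries (SD, n = 3 each). The log2 fold change was 2.34 (SE 1.08, adjusted p = 0.235 in edgeR), within the spread between ovaries. The highest ovary exceeded the lowest 89.6-fold, with an exact 95% interval for counting error of 57.2 to 149.

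Lep (chr6:29060220-29073877, plus strand) was the lowest of the hormones, with 7, 1 and 26 counts in Bnc1+/+ and 128, 62 and 3 counts in Bnc1tr/tr ovaries. These were 0.260, 0.0302 and 0.897 CPM against 4.55, 2.39 and 0.106 CPM. The order of the ovaries was that of Adipoq, with only Bnc1tr/tr replicates 1 and 2 above 1 CPM. The mean was 0.396 ± 0.449 CPM in Bnc1+/+ and 2.35 ± 2.22 CPM in Bnc1tr/tr ovaries (SD, n = 3 each), a log2 fold change of 2.58 (SE 1.19, adjusted p = 0.233 in edgeR). It was 1.65 without Bnc1tr/tr replicate 1 and 4.04 without Bnc1+/+ replicate 7. The 151-fold distance between the highest and the lowest ovary rested on a single count in Bnc1+/+ replicate 4, and its counting interval ran from 26.6 to 5998.

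Retn (chr8:3655770-3660110, plus strand) had 2.42, 0.272 and 3.28 CPM in Bnc1+/+ and 26.7, 13.1 and 1.02 CPM in Bnc1tr/tr ovaries. Again Bnc1tr/tr replicate 3 fell among the Bnc1+/+ values. The log2 fold change was 2.79 (SE 1.09, adjusted p = 0.169 in edgeR) and 1.83 without Bnc1tr/tr replicate 1, and the means were 1.99 ± 1.55 and 13.6 ± 12.9 CPM (SD, n = 3 each). The ovaries spanned 98.2-fold (counting interval 51.5 to 216).

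Cfd (chr10:79890853-79892655, plus strand) was the most abundant hormone, at 24.1, 2.75 and 45.8 CPM in Bnc1+/+ and 119, 122 and 9.38 CPM in Bnc1tr/tr ovaries. It was the only hormone with its highest value in Bnc1tr/tr replicate 2, which exceeded Bnc1+/+ replicate 4 by 44.5-fold (counting interval 36.1 to 55.4). The means were 24.2 ± 21.5 and 83.7 ± 64.4 CPM (SD, n = 3 each), with a log2 fold change of 1.79 (SE 1.04, adjusted p = 0.337 in edgeR).

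Of the lipid handling genes, the carrier Fabp4 (chr3:10204088-10208576, minus strand) came nearest to the hormones. It had 7.70, 3.11 and 13.3 CPM in Bnc1+/+ and 84.4, 47.8 and 6.70 CPM in Bnc1tr/tr ovaries, in the same order of ovaries as Adipoq. Bnc1tr/tr replicates 1 and 2 stood far above the other 4 ovaries. The means were 8.05 ± 5.13 and 46.3 ± 38.9 CPM (SD, n = 3 each). The log2 fold change was 2.53 (SE 0.84, adjusted p = 0.117 in edgeR). Bnc1tr/tr replicate 3 had the lowest Fabp4 of its genotype, so that leaving it out widens the difference. Without this ovary, Fabp4 was called higher in Bnc1tr/tr (log2 fold change 3.04, adjusted p = 0.0303 in edgeR), and 7 of 8 members had an unadjusted p under 0.05. This was the only 1 of 13 alternative fits that called Fabp4, and without Bnc1+/+ replicate 1 its adjusted p was 0.237 in edgeR. Fabp4 was the only member called in any fit tried.

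The lipase Lpl (chr8:68880491-68907448, plus strand) had 28.5, 27.6 and 37.9 CPM in Bnc1+/+ and 82.9, 44.7 and 32.3 CPM in Bnc1tr/tr ovaries. Its highest level was 3.01 times its lowest (counting interval 2.79 to 3.25). Bnc1tr/tr replicates 1 and 2 were again the highest, but Bnc1+/+ replicate 4 kept 33.2% of the level of Bnc1tr/tr replicate 1, against 1.12% for Adipoq. The log2 fold change was 0.77 (SE 0.32, adjusted p = 0.195 in edgeR), and it was 0.29 without Bnc1tr/tr replicate 1.

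The fatty acid transporter Cd36 (chr5:17781690-17888801, minus strand) showed much the same spread, at 15.1, 17.6 and 23.8 CPM in Bnc1+/+ and 50.8, 29.0 and 18.0 CPM in Bnc1tr/tr ovaries. Its lowest ovary was Bnc1+/+ replicate 1, which Bnc1tr/tr replicate 1 exceeded 3.37-fold (counting interval 3.02 to 3.77). The log2 fold change was 0.79 (SE 0.35, adjusted p = 0.217 in edgeR), and it was 0.32 without Bnc1tr/tr replicate 1. The means of Lpl were 31.3 ± 5.72 and 53.3 ± 26.4 CPM and those of Cd36 18.8 ± 4.50 and 32.6 ± 16.7 CPM in Bnc1+/+ and Bnc1tr/tr ovaries (SD, n = 3 each).

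The receptor Pparg (chr6:115360951-115490399, plus strand) did not follow the other members. It had 28.9, 34.0 and 33.0 CPM in Bnc1+/+ and 43.3, 17.2 and 25.7 CPM in Bnc1tr/tr ovaries. The 3 Bnc1+/+ ovaries lay close together, and the Bnc1tr/tr ovaries lay on both sides of them. Bnc1tr/tr replicate 2, among the highest for the 7 other members, was the lowest here. The means were 32.0 ± 2.72 and 28.7 ± 13.3 CPM (SD, n = 3 each), with a log2 fold change of -0.15 (SE 0.29, adjusted p = 0.788 in edgeR) that turned to 0.11 without Bnc1tr/tr replicate 2. The antisense gene Gm44079 overlaps Pparg, and since the strand used in counting is not given in the sources used here, their reads could not be told apart.

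**Figure D2:**
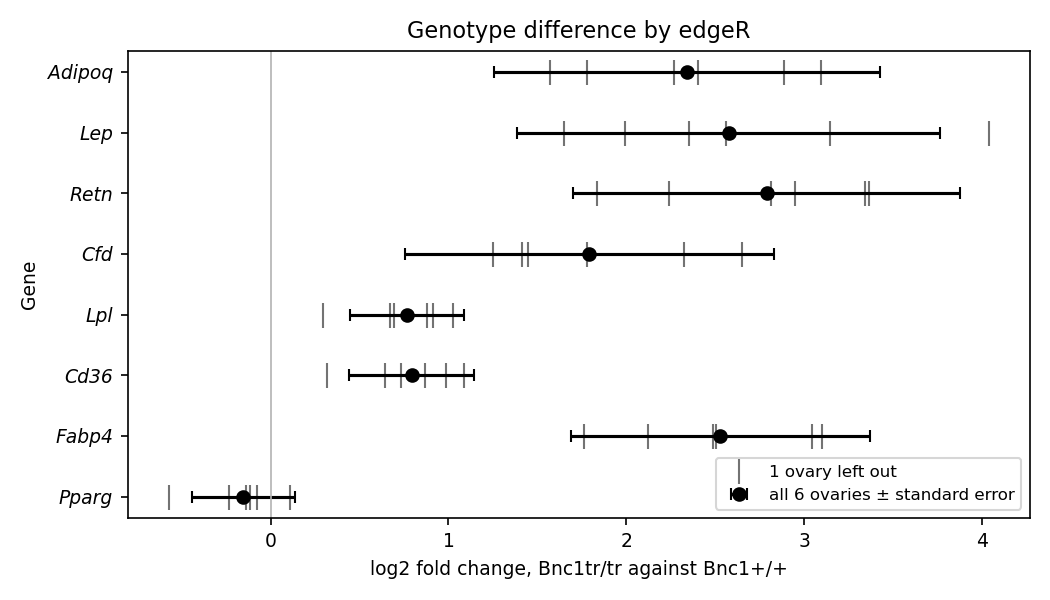
Log2 fold change of each member in Bnc1tr/tr against Bnc1+/+ ovaries from edgeR, with points and bars for all 6 ovaries ± SE and ticks for the fits that leave out an ovary. The 4 hormones and Fabp4 lie between 1.79 and 2.79, Lpl and Cd36 at 0.77 and 0.79 and Pparg at -0.15, and no adjusted p passed 0.05 with all 6 ovaries.

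Ovaries of the same genotype differed more in the hormones and Fabp4 than in nearly all other genes. The within-genotype SD of log2 CPM was 2.23 for Adipoq, 2.13 for Retn, 2.12 for Cfd and 2.11 for Lep, which placed them at ranks 36, 42, 43 and 44 of 16753 genes with a mean of at least 1 CPM. Fabp4 followed at 1.54 and rank 93. The median over these genes was 0.166, the 95th percentile 0.577 and the 99th percentile 1.16. Cd36 (0.578), Lpl (0.520) and Pparg (0.477) had ranks of 832, 1103 and 1340, so that only the hormones and Fabp4 lay beyond the 99th percentile. Differences within genotypes made up 58.4% (Fabp4) to 90.6% (Pparg) of the variance of the members, against a median of 68.1% over all these genes.

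**Figure D3:**
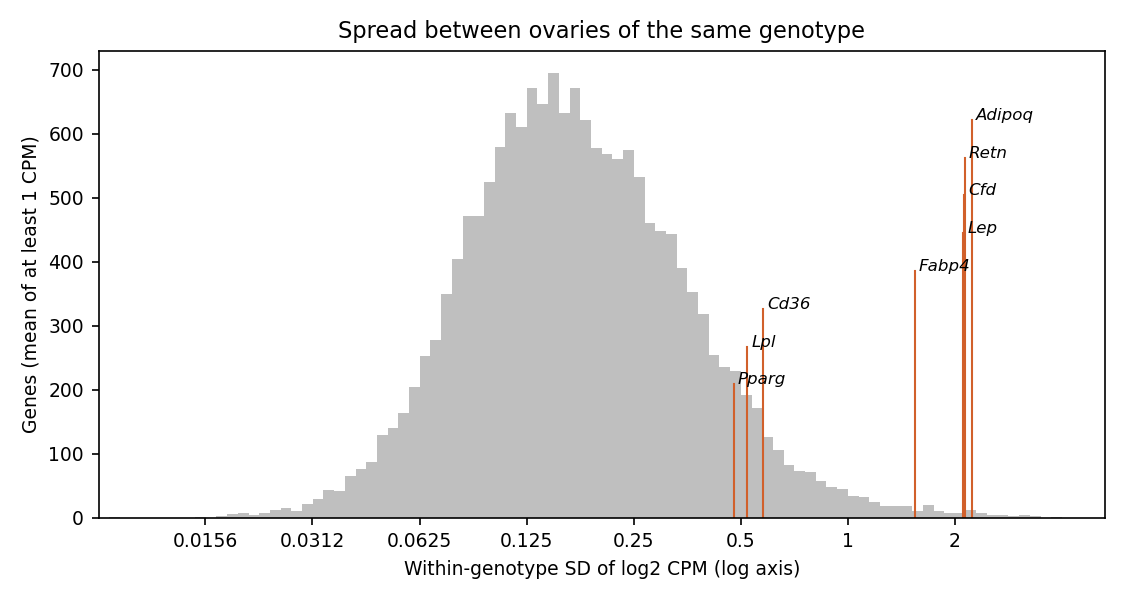
Distribution of the within-genotype SD of log2 CPM over genes with a mean of at least 1 CPM, on a log axis (1 gene lies outside it), with the members marked by lines whose height has no meaning. Adipoq, Retn, Cfd and Lep lie together near the right end at 2.11 to 2.23, Fabp4 at 1.54, and Cd36, Lpl and Pparg at 0.477 to 0.578.

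The order of the ovaries was the same in Adipoq, Lep, Retn and Fabp4, from Bnc1tr/tr replicates 1 and 2 through Bnc1+/+ replicates 7 and 1 to Bnc1tr/tr replicate 3 and Bnc1+/+ replicate 4. This order was read from Adipoq and was found in 42 of 16753 genes, or 0.251%, these members included. Bnc1tr/tr replicates 1 and 2, the highest for Adipoq, were the highest ovaries in 7 of 8 members, beside 7.7% of all these genes. Since the order and its top came from the values of a member, these shares describe the members and test nothing. The neighbours in the order were not all of 1 genotype, so that it does not separate Bnc1tr/tr from Bnc1+/+ ovaries. Of the level in Bnc1tr/tr replicate 1, Bnc1tr/tr replicate 3 held 4.73% for Adipoq, 2.32% for Lep, 3.83% for Retn, 7.85% for Cfd and 7.94% for Fabp4. For Lpl, Cd36 and Pparg it held 38.9%, 35.5% and 59.5%.

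Divided by Adipoq in the same ovary, the other hormones varied far less than their own levels did. The ratio of Retn to Adipoq was 0.394, 0.474 and 0.323 in Bnc1+/+ against 0.519, 0.424 and 0.420 in Bnc1tr/tr ovaries, a 1.61-fold range for a gene whose own level ranged over 98.2-fold. The ratio of Lep was 0.0424 to 0.0885, a 2.09-fold range, but it rested on 1 Lep count in Bnc1+/+ replicate 4 and 3 in Bnc1tr/tr replicate 3. That of Cfd was 2.32 to 4.79, a 2.06-fold range, with the lowest value in Bnc1tr/tr replicate 1. These ratios overlapped between the genotypes for all 3 genes.

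The ratio of Fabp4 to Adipoq was 1.25, 5.42 and 1.32 in Bnc1+/+ against 1.64, 1.55 and 2.75 in Bnc1tr/tr ovaries. It was highest in Bnc1+/+ replicate 4 and Bnc1tr/tr replicate 3, where Adipoq was lowest. The same ovaries had the highest ratios for Lpl (48.0 and 13.3, against 1.45 to 4.65 in the other 4), Cd36 (30.6 and 7.41, against 0.940 to 2.45) and Pparg (59.2 and 10.6, against 0.559 to 4.71). The levels of Lpl, Cd36 and Pparg ranged only over 3.01-fold, 3.37-fold and 2.51-fold, so these ratios mostly restate the range of Adipoq.

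**Figure D4:**
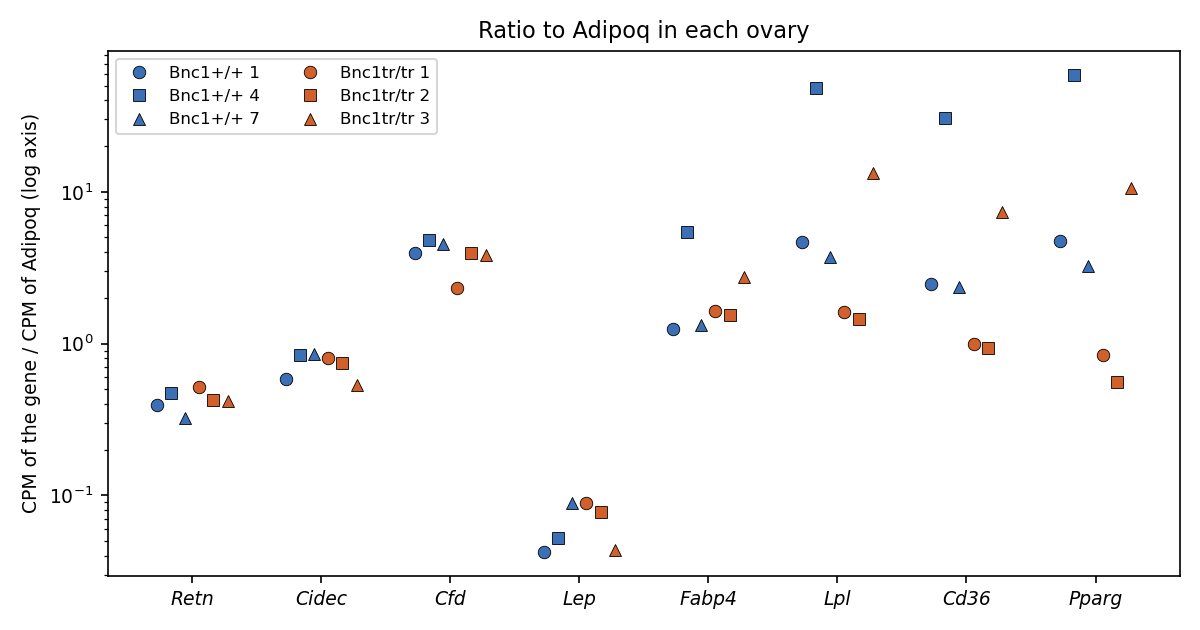
CPM of each gene divided by the CPM of Adipoq in the same ovary, on a log axis, with a point for each of the 6 ovaries. Retn, Lep, Cfd and Cidec stay within 1.59-fold to 2.09-fold, Fabp4 spreads over 4.32-fold, and Lpl, Cd36 and Pparg spread over 32.5-fold to 106-fold.

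Levels were compared between genes per kilobase of the principal transcript. In Bnc1tr/tr replicate 1, Cfd led with 130 CPM per kilobase, followed by Fabp4 (94.2), Adipoq (39.8), Pparg (24.5), Retn (23.5), Lpl (20.1), Cd36 (14.9) and Lep (1.40). In Bnc1+/+ replicate 4 the order was another, with Pparg first at 19.2 CPM per kilobase, then Lpl (6.70), Cd36 (5.16), Fabp4 (3.47), Cfd (2.98), Adipoq (0.444), Retn (0.239) and Lep (0.00927). Transcript lengths were taken from GENCODE and not from the annotation used for counting.

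Across all 6 ovaries, the genes with a pattern most like that of a member were named by Pearson's r of log2 CPM, as a description over 6 points that share their libraries and depth. Cidec, a protein of the adipocyte lipid droplet, was among the 3 most alike for Adipoq (r = 0.993), Lep (0.993) and Retn (0.989). The others for Adipoq were Ctdsp2 (0.997), which ranged only from 292 to 371 CPM, and Abca6 (0.994), so that likeness of order did not mean likeness of size. Abca6 (0.995) and Ctdsp2 (0.993) were nearest to Cfd, while Srcap (0.998), the adipocyte beta-adrenergic receptor Adrb3 (0.993) and Zfp783 (0.990) were nearest to Fabp4. Car5b and Gm4600 (both 0.992) were further neighbours of Lep, and Trpm7 (0.991) and Cdon (0.986) of Retn. Lpl was most like Mettl13 (0.994), Gm10557 (0.993) and Crtc3 (0.993), and Cd36 most like Nxnl2 (0.996), Gm10557 (0.995) and Pde7b (0.992). For Pparg they were Zfp1 (0.995), Med23 (0.994) and Dnah2 (0.988).

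Of 29 further adipocyte genes, 28 were tested, and 2 rose and 3 fell in Bnc1tr/tr ovaries, beside 2.88% and 4.19% of all genes tested. Their median log2 fold change was 0.68, with 19 genes above and 9 below 0, against 0.02 over all genes. The lipid droplet coat protein Plin1 rose, from 8.92, 9.58 and 12.7 CPM to 36.4, 23.7 and 15.5 CPM (log2 fold change 1.28, SE 0.30, adjusted p = 0.0442 in edgeR). The glycerol channel Aqp7 rose from 0.186, 0.121 and 0.138 CPM to 1.07, 0.654 and 0.353 CPM (log2 fold change 2.20, SE 0.51, adjusted p = 0.0434 in edgeR), on at most 30 counts per ovary. The call of Plin1 held in 6 of 13 and that of Aqp7 in 6 of 12 alternative fits, and of the fits that left out an ovary both held only in the one without Bnc1tr/tr replicate 3.

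The 3 that fell had at least 38.1 CPM in every ovary. Plin4, another lipid droplet coat protein, fell from 689, 882 and 1176 CPM to 84.5, 60.7 and 38.1 CPM (log2 fold change -3.91, SE 0.33, adjusted p = 0.0017 in edgeR). Retinol saturase, Retsat, had 93.3 to 103 CPM in Bnc1+/+ and 53.8 to 66.3 CPM in Bnc1tr/tr ovaries (log2 fold change -0.70, adjusted p = 0.00835). Hormone-sensitive lipase, Lipe, had 79.0 to 101 and 52.6 to 66.8 CPM (log2 fold change -0.59, adjusted p = 0.0413), a call lost in 6 of 13 alternative fits. The corpus luteum markers were lower in the same ovaries, and their part in these 3 falls was not tested. The most abundant of the others were Nnat (mean 150 CPM, log2 fold change 0.57, adjusted p = 0.264) and the melanocortin receptor accessory protein Mrap (145 CPM, -0.68, adjusted p = 0.427). Without Bnc1tr/tr replicate 1 they had log2 fold changes of 0.19 and -0.25, and without Bnc1tr/tr replicate 2 Mrap had -1.06.

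Genes listed as defining markers of adipocytes shared the highest ovaries with the hormones but mostly not their full order. Bnc1+/+ replicate 4 held from 1.17% (Cidec) to 84.9% (Acvr1c) of their level in Bnc1tr/tr replicate 1, against 1.12% for Adipoq. The 8 defining adipocyte markers, a part of the 29 adipocyte genes, had counts in every ovary. They summed to 17.9, 13.5 and 27.8 CPM in Bnc1+/+ and 101, 65.5 and 21.7 CPM in Bnc1tr/tr ovaries. The sum of all 29 genes, of which Plin4 was the most abundant, went the other way. It was 1645 to 2081 CPM in Bnc1+/+ and 792 to 1239 CPM in Bnc1tr/tr ovaries. All 8 markers had a log2 fold change above 0, as did 19 of the 28 adipocyte genes tested. Of the 7 defining markers with a mean of at least 1 CPM, all 7 were highest in Bnc1tr/tr replicates 1 and 2. Only 2 of them, Cidec and Adrb3, had the order of ovaries of Adipoq. In Bnc1tr/tr replicate 3, Plin1 (15.5 CPM) and Adig (1.59 CPM) lay above every Bnc1+/+ ovary, unlike the hormones. Cidec, named after its values were seen, had 3.57, 0.483 and 8.66 CPM in Bnc1+/+ and 41.2, 23.1 and 1.30 CPM in Bnc1tr/tr ovaries, and its ratio to Adipoq stayed between 0.536 and 0.854, a 1.59-fold range. The ratios of the 7 other markers to Adipoq ranged more widely, over 3.63-fold for Slc7a10, 5.34-fold for Adrb3, 14.7-fold for Adig, 20.6-fold for Lgals12, 23.6-fold for Plin1, 27.4-fold for Trarg1 and 76.1-fold for Acvr1c. Only Plin1 passed the test among the 8, beside 7.06% of all genes tested. The brown fat genes Ucp1 and Elovl3 had at most 3 counts in any ovary, and the 8 brown adipocyte markers summed to 6.72 to 13.8 CPM. Cox7a1, at 3.27 to 7.74 CPM, made up much of this sum. Cidea, named after its values were seen, had 2.23, 0.332 and 0.0690 CPM in Bnc1+/+ and 0.462, 0.154 and 5.11 CPM in Bnc1tr/tr ovaries. It was highest in Bnc1tr/tr replicate 3, unlike the hormones. How much of the members' differences came with adipocytes left on the ovary was not tested.

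**Figure D5:**
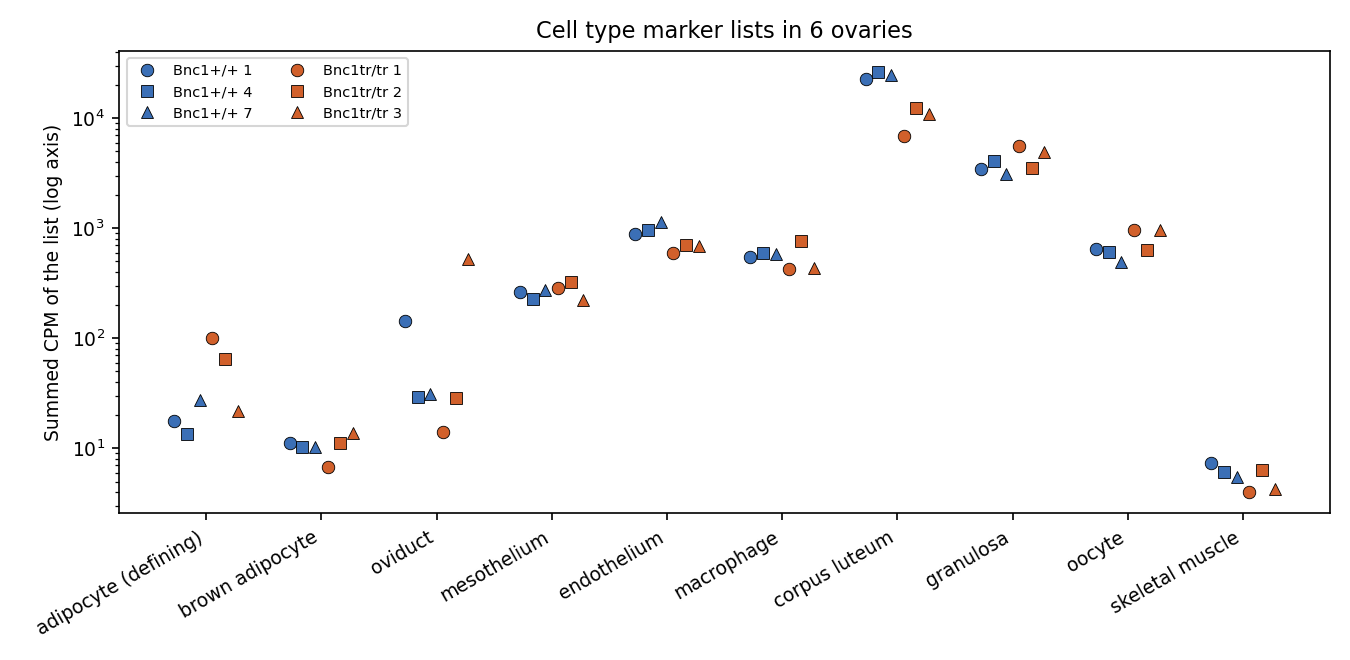
Summed CPM of marker lists for cell types in each of the 6 ovaries, on a log axis, with a point for each ovary coloured by genotype. The defining adipocyte markers run from 13.5 to 101 CPM with Bnc1tr/tr replicates 1 and 2 at the top, and the oviduct markers are highest in Bnc1tr/tr replicate 3 and Bnc1+/+ replicate 1 at 522 and 144 CPM.

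The summed markers of other cell types that make Lpl, Cd36, Fabp4 or Pparg did not follow the order of Adipoq. Lpl, Cd36 and Pparg did not follow it either, so this order cannot tell which cells supply them. The 12 endothelial markers summed to 889 to 1138 CPM in Bnc1+/+ and 600 to 703 CPM in Bnc1tr/tr ovaries, where 5 of 12 fell and 0 rose, beside 4.19% and 2.88% of all genes tested. The 10 macrophage markers were highest in Bnc1tr/tr replicate 2 (770 CPM) and between 426 and 594 CPM elsewhere, and 1 of the 10, Mertk, had the order of ovaries of Adipoq. The 8 granulosa markers had 3477, 4078 and 3090 CPM in Bnc1+/+ and 5561, 3494 and 4892 CPM in Bnc1tr/tr ovaries. Like Pparg, they were highest in Bnc1tr/tr replicate 1, but their order over all ovaries was not that of Pparg. Their lowest ovary was Bnc1+/+ replicate 7, and that of Pparg was Bnc1tr/tr replicate 2. Bnc1tr/tr replicate 3 lay above every Bnc1+/+ ovary for the granulosa markers and below every Bnc1+/+ ovary for Pparg. The part of these cells in the levels of the members was not tested.

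Of 17 receptors and first signalling steps of the hormones, 0 passed the test, beside 7.06% of all genes tested. At an unadjusted p under 0.05 in edgeR there were 2 of 17, beside 24.2% of all genes, and 1 passed in DESeq2. The median log2 fold change of the 17 was -0.05. The adiponectin receptors Adipor1 (mean 179 CPM, log2 fold change -0.13, adjusted p = 0.354) and Adipor2 (199 CPM, -0.23, adjusted p = 0.308) were abundant in every ovary, as was Cap1, a resistin receptor (278 CPM, -0.08, adjusted p = 0.526). The leptin receptor Lepr, named after its values were seen, had 15.0, 13.3 and 13.6 CPM in Bnc1+/+ and 17.0, 29.5 and 25.4 CPM in Bnc1tr/tr ovaries. Its genotypes did not overlap, and its log2 fold change of 0.78 (SE 0.19) had an adjusted p of 0.0536 in edgeR and passed in 5 of 13 alternative fits, among them DESeq2 (adjusted p = 0.0039). Complement C3, on which adipsin's pathway acts, was also named after its values were seen and had 127, 36.9 and 109 CPM against 210, 257 and 96.5 CPM (adjusted p = 0.235).

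Of 21 partners of lipoprotein lipase and CD36 and other fatty acid carriers, 18 were tested, and 1 rose and 2 fell, beside 2.88% and 4.19% of all genes tested. The endothelial lipase Lipg, a relative of Lpl, fell from 88.6, 180 and 401 CPM to 52.4, 33.1 and 22.7 CPM (log2 fold change -2.63, SE 0.55, adjusted p = 0.0327 in edgeR). The fatty acid transport protein Slc27a4 fell from 183, 182 and 127 CPM to 71.5, 83.2 and 77.7 CPM (log2 fold change -1.08, SE 0.15, adjusted p = 0.00707 in edgeR). Fabp3, a relative of Fabp4, rose from 19.4, 18.0 and 14.9 CPM to 27.6, 23.9 and 25.7 CPM (log2 fold change 0.56, SE 0.12, adjusted p = 0.037 in edgeR). None of these 3 had the order of ovaries of Adipoq. The call of Slc27a4 held in 13 of 13 alternative fits, and those of Lipg and Fabp3 each in 8. The most abundant others were Slc27a1 (mean 313 CPM, log2 fold change 0.01), the lipase inhibitor Angptl4 (166 CPM, 0.16) and Sel1l (160 CPM, 0.14), with adjusted p of 0.962, 0.471 and 0.274. Gpihbp1, which anchors lipoprotein lipase to capillaries, was named after its values were seen and had 5.35 to 8.73 CPM in Bnc1+/+ and 7.24 to 9.13 CPM in Bnc1tr/tr ovaries.

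Of 20 partners, relatives and co-regulators of PPARG, 1 rose and 0 fell, beside 2.88% and 4.19% of all genes tested, with a median log2 fold change of 0.20. At an unadjusted p under 0.05 in edgeR there were 9 of 20, beside 24.2% of all genes. Ebf2, a transcription factor of adipocyte precursors, rose from 0.186, 0.181 and 0.138 CPM to 1.96, 1.54 and 1.13 CPM (log2 fold change 3.16, SE 0.35, adjusted p = 0.00374 in edgeR). Its Bnc1tr/tr values stayed together, with 55, 40 and 32 counts against 5, 6 and 4 in Bnc1+/+, and Bnc1tr/tr replicate 3 held more than any Bnc1+/+ ovary. The call held in 12 of 12 alternative fits. Among the most abundant of the list were the co-repressor Ncor1 (mean 235 CPM, log2 fold change 0.04, adjusted p = 0.779) and the partner receptor Rxrb (117 CPM, 0.19, adjusted p = 0.206). Of 17 close relatives of the members, 8 were tested and 3 were called, beside 7.06% of all genes tested. Besides Fabp3 and Lipg, the HDL receptor Scarb1, a relative of Cd36 and also a corpus luteum marker, was called, with 2574 CPM on average in Bnc1+/+ and 709 CPM in Bnc1tr/tr ovaries.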

How the data were processed

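Whole ovaries of 3 Bnc1+/+ and 3 Bnc1tr/tr mice were profiled as total RNA on the Ion Proton, per the labels and methods. The authors deposited raw read counts per gene, without normalization, under gene symbols. The labels list the builds mm10 and Sscrofa10.2 with no role, and the aligner, counter, annotation and strand are not given in the sources used here. Genes were filtered with filterByExpr (minimum count 10), which kept 19423 of 31717 genes with a count, normalized with TMM and tested with edgeR 4.0.16 (glmQLFit, glmQLFTest, R 4.3.3), two-sided, adjusted over all genes at 0.05. The SE was derived from the fold change and F. Log2 CPM used a prior count of 2. DESeq2 1.42.0, limma 3.58.1 (voom), other scalings and filters, and leaving out each ovary were alternatives. The code was tested on simulated data. Ovaries of the same genotype were not duplicates, since their counts differed by a chi-square of at least 17.0 per degree of freedom. P-values set the genotype difference against the spread between ovaries. Exact intervals cover counting error only. Positions are GRCm38 and lengths GENCODE M21. The 8 genes, the further lists and the tests were chosen with earlier results of these data known. Named were all members, list genes past the threshold (at most 5 a list), the 3 most abundant of each list and the 3 genes most like each member. Some genes that this rule names are not reported here.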

Additional observations from a re-analysis of the deposited data

How the results depend on the processing

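Over the alternative fits, 100 of 102 log2 fold changes, each of 1 member in 1 fit, kept direction and side of the threshold. The exceptions were Fabp4, called without Bnc1tr/tr replicate 3, and Pparg, whose log2 fold change ranged from -0.57 to 0.11 when 1 ovary was left out. The cause was not tested. Members called ranged from 0 to 1 in these fits. All genes called were 1372, against 2420 with DESeq2 and 320 to 1282 without an ovary (320 without Bnc1+/+ replicate 4, 518 without replicate 7, 634 without Bnc1tr/tr replicate 3). With library sizes alone, 1728 were called, the share that fell went from 59.3% to 35.6% and the median log2 fold change of all genes from 0.02 to 0.12. With library sizes alone, Cap1 turned to 0.0159. Slc27a1 ranged from -0.0662 to 0.0597 without an ovary and was -0.0119 without Bnc1+/+ replicate 4. Adipocyte genes called, 5 with all ovaries, were 8 with no filter, 9 with DESeq2 and 3 with limma-voom, and 1 to 8 without an ovary (1 without Bnc1+/+ replicate 4, 8 without Bnc1tr/tr replicate 3). Hormone receptors and signals called, 0, were 1 with library sizes alone, no filter, DESeq2 or robust dispersion, and 0 to 1 without an ovary. Lipid uptake partners called, 3, were 1 to 2 without an ovary. PPARG partners called, 1, were 2 with library sizes alone or no filter, 0 when every ovary needed 10 counts and 3 with DESeq2. Lep, Retn and Ebf2, the PPARG partner called with all ovaries, were not tested in that stricter filter. No paired analysis was possible because the genotypes share only the replicate number 1 and the litters are not given. Depth limited Lep, which had 1 and 3 counts in its lowest ovaries.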
